A study of Mus musculus with 8 samples.

Results

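The epithelial sodium channel (ENaC) and the effectors that carry the aldosterone signal to it were followed in kidney cortex of mice labelled Sav1 wild-type and Sav1-null. The group was fixed by name and held 7 genes: the channel subunits Scnn1a, Scnn1b and Scnn1g, the kinase Sgk1, the ubiquitin ligase Nedd4l, the steroid-inactivating enzyme Hsd11b2 and the protease Prss8. All 7 were found among the 21705 gene names of the deposited table, and all 7 passed the filter on low values that left 13677 genes. RNA of the cortex was sequenced from 4 libraries with genotype Sav1+/+ after vehicle, called wild-type here, and from 4 with genotype Sav1-/- after tamoxifen, called Sav1-null. Every library carries the label of a mixed background strain. Sav1 encodes a scaffold of the Hippo kinase cascade, and the series asks what its loss does to the kidney. The labels give neither age, sex, the Cre driver, the cells in which it acts, nor how many animals stand behind the libraries.

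ENaC is the pore through which principal cells of the connecting tubule and collecting duct take sodium up from the forming urine, and its alpha, beta and gamma subunits are encoded by Scnn1a, Scnn1b and Scnn1g. Aldosterone binds the mineralocorticoid receptor in these cells and raises Sgk1, a kinase that phosphorylates the ubiquitin ligase encoded by Nedd4l and so holds it away from the channel. Hsd11b2 inactivates corticosterone and thereby keeps the receptor free for aldosterone, while prostasin, the product of Prss8, promotes cleavage of the gamma subunit and opens the channel. Nedd4l protein marks the subunits for removal from the membrane, so it acts against the channel.

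Every number below rests on deposited normalized values, scaled so that each library has its upper quartile, taken over values above 0, at 1000 after rounding, or at 999 in wild-type replicate 2. The libraries held about 20500000 to 25000000 reads in the wild-type group and 15700000 to 20900000 in the Sav1-null group. Sav1 had values of 1504, 1743, 959 and 1193 in wild-type and 983, 914, 982 and 714 in Sav1-null libraries, so the groups overlapped. It was lower by limma (adjusted p = 0.0220), a call that was lost with equal library totals (adjusted p = 0.375) and without wild-type replicate 1 (adjusted p = 0.0611) or 2 (adjusted p = 0.0570), and the labels do not name the exons deleted. Xist had at most 0.989 in a wild-type library and at least 9280 in a Sav1-null library, and the Y-linked Ddx3y, Eif2s3y, Kdm5d and Uty were at 0 in all 4 Sav1-null libraries and ranged upward from 326 (Kdm5d, replicate 4) in the wild-type libraries. Sex, genotype and treatment therefore cannot be told apart in any result below. The closing numbers of the column headers repeat between the groups, and the headers do not say whether the groups were sequenced together. Any difference between sequencing runs that follows the groups could not be told apart from them either. Proximal tubule markers were abundant in wild-type cortex, with a summed level from 431171 to 474784, and spanned 52440 to 140250 in the Sav1-null libraries, where injured tubule markers rose in 10 of 10 genes.

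Promoters are shown for 3 of the 7 genes, Scnn1b, Scnn1g and Sgk1, because these have an entry in the RefSeq promoter table and because the neighbouring Scnn1b and Scnn1g have nearly equal fold changes, given below. The windows are read from RefSeq on build GRCm38.p6, plus strand, 5′ to 3′, and end just before the annotated start of transcription. The Scnn1g window is chr7:121734229-121734419 and is shorter than the others because it stops before the first annotated start of the gene. The Scnn1b window is chr7:121864788-121865037, and the Sgk1 window, belonging to 1 of 6 annotated starts of that gene, is chr10:21993640-21993889. It was chosen after the search because it alone of the 6 holds the palindrome described below. No exon of an annotated transcript of the gene itself lies in any of these windows. Capitals mark a palindrome of the kind bound by the glucocorticoid and mineralocorticoid receptors.
Scnn1g: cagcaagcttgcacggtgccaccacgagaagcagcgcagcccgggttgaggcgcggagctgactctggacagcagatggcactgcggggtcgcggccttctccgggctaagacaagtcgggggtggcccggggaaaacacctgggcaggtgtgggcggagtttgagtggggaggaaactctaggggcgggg
Scnn1b: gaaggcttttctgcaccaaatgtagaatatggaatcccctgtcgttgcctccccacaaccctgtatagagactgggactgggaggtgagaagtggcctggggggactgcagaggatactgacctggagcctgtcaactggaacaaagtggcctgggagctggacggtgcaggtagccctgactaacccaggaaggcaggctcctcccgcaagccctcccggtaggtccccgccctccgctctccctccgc
Sgk1: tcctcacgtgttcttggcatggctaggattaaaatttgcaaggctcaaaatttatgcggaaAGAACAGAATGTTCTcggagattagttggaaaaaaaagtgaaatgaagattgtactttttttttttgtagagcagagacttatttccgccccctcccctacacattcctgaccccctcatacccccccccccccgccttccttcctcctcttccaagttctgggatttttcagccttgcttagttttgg
The palindrome searched was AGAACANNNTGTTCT, on both strands, and it occurs in this 1 Sgk1 window as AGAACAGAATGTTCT, beginning 189 bases before the start. It is present in 3 of 32851 RefSeq promoters cut to the same 250 bases, a share of 0.00913%. The single arm AGAACA is held by 16.1% of all promoters and matched 3 times in the Sgk1 window, of which 2 matches lie within the palindrome. The hexamer GGAATG, known from TEAD factors that act at the end of the Hippo pathway, is held by 12.6% of promoters and lies 87 bases before the Sgk1 start. The spaced motif TTCNNNGAA, known from STAT factors, is held by 7.02% of promoters. It has no match in this window and matches at another of the 6 Sgk1 starts, 223 bases before it. The other 5 Sgk1 windows hold neither the palindrome nor GGAATG, and the shares of all promoters are not a test of a window chosen this way. The Scnn1b and Scnn1g windows held none of these 4 motifs, and their bases were 60.8% and 67.0% G or C, against 44.8% in the Sgk1 window. A match describes letters only. RefSeq places Scnn1g and Scnn1b next to each other on chromosome 7 with a single long noncoding gene, Gm36848, between them. Gm36848 is not wholly between them, since it shares 34 bases with Scnn1g.

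Of the 7 genes, 6 were higher and 1 was lower in Sav1-null cortex by limma, with adjusted p from 3.11e-06 to 0.0159. In none of the 7 did the groups overlap. Change was common in this comparison: 43.9% of all tested genes were called higher and 25.2% were called lower. Without any test, 41.0% of tested genes had all Sav1-null values above all wild-type values, and 24.1% had them all below. The median log2 fold change of the 7 was 0.93, against 0.23 over all tested genes. Whether replicates are separate animals is not stated in the labels, and the spread that the p-values measure may be technical.

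All 3 channel subunits rose. Scnn1a, the pore subunit without which the channel barely conducts, had 2064, 2315, 2988 and 2960 in wild-type replicates 1 to 4 and 3770, 4914, 4489 and 6750 in Sav1-null replicates 1 to 4. Every Sav1-null value lay above every wild-type value, and the mean went from 2581 ± 464 to 4981 ± 1271 (SD, n = 4). The log2 fold change was 0.93 ± 0.19 (SE), or 1.91-fold, with a limma adjusted p of 0.00161.

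Scnn1b had 965, 1083, 1257 and 1125 in the wild-type and 2848, 3793, 2964 and 5631 in the Sav1-null libraries. The lowest Sav1-null library was thus far above the highest wild-type library. Scnn1b rose 3.32-fold, from 1108 ± 121 to 3809 ± 1285 (SD, n = 4), a log2 fold change of 1.73 ± 0.20 (SE; limma adjusted p = 5.54e-05). Scnn1g, whose protein is cleaved when the channel is activated, had 1204, 1181, 1156 and 1278 in wild-type and 3308, 4237, 3722 and 4981 in Sav1-null libraries. The wild-type values of Scnn1g were the tightest of the 7 genes. Its mean went from 1205 ± 52.8 to 4062 ± 721 (SD, n = 4), which is 3.33-fold and a log2 fold change of 1.74 ± 0.12 (SE; limma adjusted p = 3.11e-06).

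**Figure D1:**
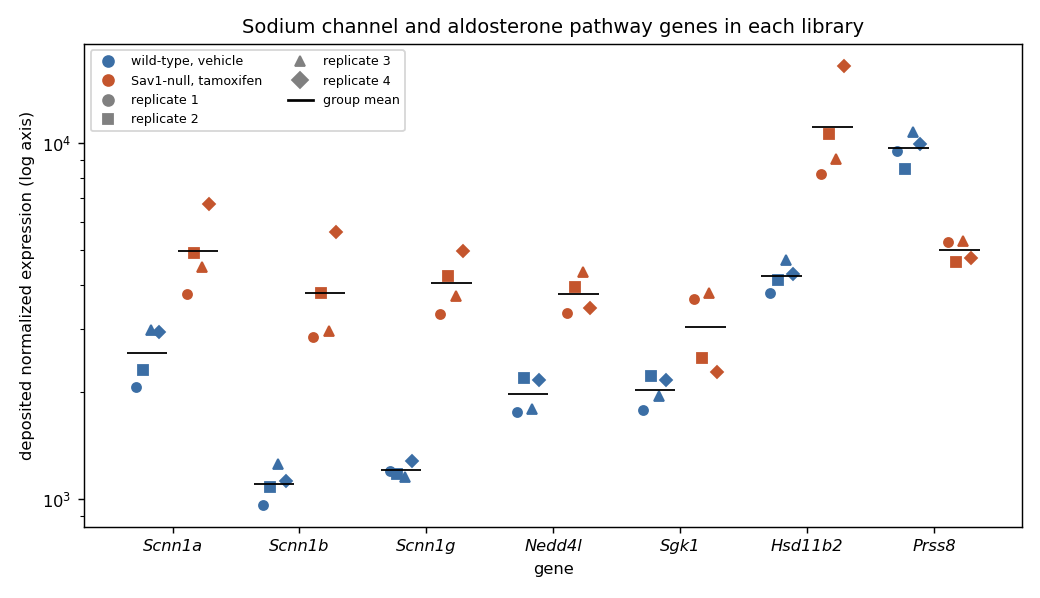
Deposited normalized expression (log axis) of the 7 genes, with wild-type vehicle libraries in blue, Sav1-null tamoxifen libraries in orange, a symbol for each replicate and black bars at the group means. The groups do not overlap for any gene, and Prss8 is the gene whose Sav1-null values, from 4641 to 5322, lie below the wild-type values, from 8455 to 10755.

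Within the Sav1-null group the libraries kept 1 order for 4 of the 7 genes. Scnn1a, Scnn1b, Scnn1g and Hsd11b2 were lowest in replicate 1, followed by replicates 3, 2 and 4. The mean log2 level of Aqp2, Aqp3, Avpr2 and Fxyd4, genes of principal cells that serve as a reference below, had the same order, with antilogs of 1771, 2040, 2877 and 2994. Taken singly, Avpr2 and Fxyd4 kept that order, while Aqp2 and Aqp3 were highest in replicate 2 and Aqp3 was lowest in replicate 4. Sgk1 did not share the order: its lowest library was replicate 4 and its highest replicate 3. Nedd4l was lowest in replicate 1 and highest in replicate 3, and Prss8 was lowest in replicate 2.

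The beta and gamma subunits rose further than alpha. The ratio of Scnn1b to Scnn1a within a library does not depend on a scaling factor per library, and it was 0.468, 0.468, 0.421 and 0.380 in wild-type and 0.756, 0.772, 0.660 and 0.834 in Sav1-null libraries. The groups did not overlap, and the ratio was 1.74-fold higher in the Sav1-null group (log2 difference 0.80 ± 0.10, SE). The exact permutation test, two-sided, returned p = 0.0286, the smallest that 4 against 4 allow, and 0.0786 after Benjamini-Hochberg adjustment over the 11 ratios computed. The ratio of Scnn1g to Scnn1a was 0.584, 0.511, 0.387 and 0.432 in wild-type and 0.878, 0.862, 0.829 and 0.738 in Sav1-null libraries. It was 1.75-fold higher, again without overlap (log2 difference 0.80 ± 0.14, SE; exact permutation p = 0.0286, adjusted 0.0786). The ratio of Scnn1g to Scnn1b overlapped between the groups, with a log2 difference of 0.00 ± 0.14 (SE; exact permutation p = 0.971). None of the 11 ratios passed 0.05 after adjustment.

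Levels of different genes were compared only per kilobase (kb) of the longest annotated transcript, and the share of each subunit in the 3 summed levels was taken from these. In wild-type cortex Scnn1a made up 46.2 ± 3.20% of subunit transcript level, Scnn1b 28.2 ± 1.36% and Scnn1g 25.6 ± 2.95% (SD, n = 4). In Sav1-null cortex the shares were 33.0 ± 1.02% for Scnn1a, 35.1 ± 2.73% for Scnn1b and 31.9 ± 2.36% for Scnn1g (SD, n = 4). The share of Scnn1a ran from 42.7% to 49.0% in wild-type and from 32.3% to 34.5% in Sav1-null libraries, so the groups did not overlap. These shares restate the ratios above on a scale that accounts for length, and no further test was made.

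**Figure D2:**
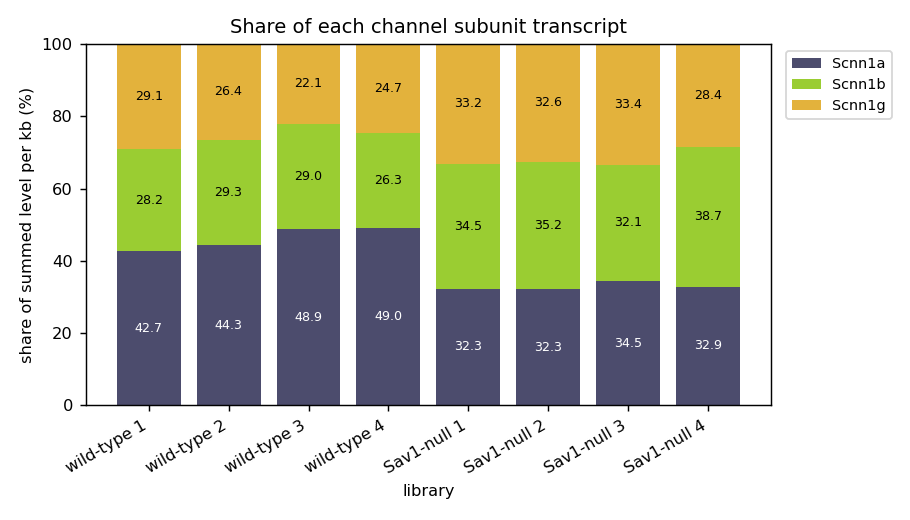
Share of Scnn1a, Scnn1b and Scnn1g in their summed level per kb (%) in each of the 8 libraries, with the value printed in each bar segment. The Scnn1a segment is at least 42.7% in the wild-type libraries and at most 34.5% in the Sav1-null libraries.

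Among the effectors, Sgk1 rose the least. Sgk1 had 1783, 2221, 1952 and 2158 in wild-type and 3646, 2499, 3799 and 2273 in Sav1-null libraries. Sav1-null replicates 1 and 3 were far above the wild-type group, while replicates 2 and 4 were only just above it. The mean went from 2028 ± 200 to 3054 ± 780 (SD, n = 4), a log2 fold change of 0.56 ± 0.17 (SE), or 1.47-fold, with a limma adjusted p of 0.0159. The call was lost when libraries were rescaled by median of ratios (log2 fold change 0.33, limma adjusted p = 0.109), and without wild-type replicates 2 and 3 (0.60, limma adjusted p = 0.0631). Those replicates had the highest values of the injury marker Havcr1 in their group, 1099 and 665, against 23.6 and 15.5 in replicates 1 and 4. Over all alternatives the adjusted p of Sgk1 ran from 0.000470 to 0.109.

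Nedd4l had 1757, 2189, 1788 and 2161 in wild-type and 3344, 3941, 4361 and 3444 in Sav1-null libraries. Both groups were tight and stood clear of each other. Nedd4l, the ligase that acts against the channel, rose 1.91-fold, from 1973 ± 233 to 3773 ± 471 (SD, n = 4), a log2 fold change of 0.93 ± 0.11 (SE; limma adjusted p = 7.76e-05). The ratio of Sgk1 to Nedd4l was 1.01, 1.01, 1.09 and 0.999 in wild-type and 1.09, 0.634, 0.871 and 0.660 in Sav1-null libraries. Sav1-null replicate 1 lay within the wild-type range, and the log2 difference of -0.37 ± 0.19 (SE) did not pass (exact permutation p = 0.114, adjusted 0.140). Over single libraries left out, the log2 difference ran from -0.53 to -0.27 and the exact permutation p from 0.0286 to 0.229. The -0.53 and the lowest p came without Sav1-null replicate 1, the only Sav1-null library in the wild-type range. Removing it fixes the separation of the groups in advance, so that p does not stand as a test.

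Hsd11b2 had 3793, 4132, 4698 and 4294 in wild-type and 8220, 10641, 9025 and 16490 in Sav1-null libraries. Replicate 4 of the Sav1-null group stood highest, and the lowest Sav1-null value was still well above the wild-type group. The mean went from 4229 ± 376 to 11094 ± 3736 (SD, n = 4), a log2 fold change of 1.34 ± 0.20 (SE), or 2.53-fold, with a limma adjusted p of 0.000241. Hsd11b1, which regenerates active corticosterone and so runs the opposite reaction, fell from 8022 ± 1752 to 218 ± 100.4 (SD, n = 4; log2 fold change -5.35, limma adjusted p = 4.86e-06). Nr3c2, the mineralocorticoid receptor, rose from 204 ± 10.7 to 335 ± 26.4 (SD, n = 4; log2 fold change 0.71, limma adjusted p = 0.000169).

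Prss8 was the 1 member that fell. It had 9492, 8455, 10755 and 9984 in wild-type and 5289, 4641, 5322 and 4765 in Sav1-null libraries. The Sav1-null values lay close together and all below the wild-type group. The mean went from 9671 ± 963 to 5004 ± 352 (SD, n = 4), a log2 fold change of -0.95 ± 0.10 (SE), or 1.93-fold lower, with a limma adjusted p of 2.50e-05. Prss8 is known from proximal as well as distal tubule, and beside its fall 11 of 12 proximal tubule markers fell and none rose, with a list median of -2.03 on the log2 scale. Their part in the result was not tested.

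The direction of the 7 genes did not depend on how libraries were scaled, but the sizes did. The median of all tested genes was 0.23 on the log2 scale as deposited. It moved to 0.00 when libraries were rescaled by median of ratios, to -0.02 with quantiles equalised and to 0.62 with equal totals. All genes together were called higher 6002 times and lower 3452 times as deposited, 4595 and 4652 times by median of ratios, 4311 and 4515 times by quantiles, and 8733 and 1946 times with equal totals. Prss8 was at -1.17 by median of ratios, at -0.39 by quantiles and at -0.56 by equal totals, and it was called lower in all 3. Scnn1a was 0.71, 1.27 and 1.32 in the same order and was called higher in all 3.

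**Figure D3:**
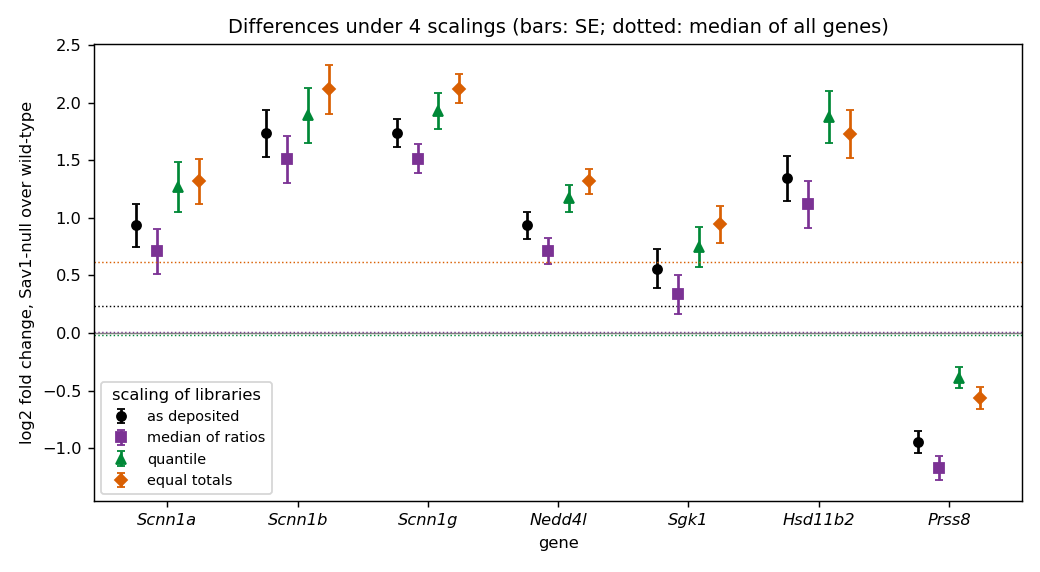
Log2 fold change (Sav1-null over wild-type, with SE bars) of the 7 genes under the deposited scaling and 3 others, with dotted lines at the median of all tested genes under each. Sgk1 lies nearest to the medians among the genes that rose, and Prss8 lies below them under all 4 scalings, at -0.39 in the least extreme.

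Per kb of transcript, Prss8 had the highest level in wild-type cortex, at 5222 ± 520 per kb (SD, n = 4), followed by Hsd11b2 at 2299 ± 204. Scnn1a at 738 ± 133 and Sgk1 at 655 ± 64.6 came next and overlapped in range. Scnn1b at 447 ± 48.7 and Scnn1g at 403 ± 17.6 also overlapped, and Nedd4l was lowest at 253 ± 29.9. In Sav1-null cortex Hsd11b2 led at 6029 ± 2030 per kb, above Prss8 at 2702 ± 190. Scnn1b at 1537 ± 519, Scnn1a at 1423 ± 363, Scnn1g at 1358 ± 241 and Sgk1 at 986 ± 252 followed, each overlapping its neighbour in that order. Nedd4l was again lowest, at 484 ± 60.5 per kb. Its place in wild-type cortex depended on the length taken: with the median of its 13 transcripts, 3393 in place of 7787 bases, its wild-type level was 582 per kb, above Scnn1b and Scnn1g. Scnn1a and Sgk1 also changed places in wild-type cortex with median lengths, at 754 and 787 per kb.

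Genes of principal cells, where ENaC resides, rose too. Of the 8 principal cell markers, 7 rose and none fell, with a median log2 fold change of 1.98 and a summed level from 4471 to 6786 in wild-type and from 10822 to 19175 in Sav1-null libraries. In such bulk RNA, more cells of a type and more RNA per cell cannot be told apart. Aqp2, the vasopressin-regulated water channel, rose from 2033 ± 479 to 7438 ± 2629 (SD, n = 4; limma adjusted p = 0.000149), and the vasopressin receptor Avpr2 rose from 392 ± 20.0 to 1352 ± 461 (SD, n = 4; limma adjusted p = 4.57e-05). Fxyd4, a regulator of the sodium pump, rose from 280 ± 33.3 to 1234 ± 597 (SD, n = 4; limma adjusted p = 0.000137). Aqp3, the basolateral water channel, went from 2483 ± 496 to 3014 ± 786 (SD, n = 4) and was not called (limma adjusted p = 0.251). The mean log2 level of these 4 reference genes was higher by 1.47, or 2.76-fold.

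Set against this reference within each library, Scnn1b, Scnn1g and Hsd11b2 overlapped between the groups, with log2 differences of 0.27, 0.27 and -0.12 and exact permutation p of 0.0857, 0.0571 and 0.343. Scnn1a was lower relative to the reference by 0.53 on the log2 scale, with no overlap (exact permutation p = 0.0286, adjusted 0.0786). Leaving out Sav1-null replicate 1, 2 or 3 brought that exact p to 0.0571. Prss8 was 5.33-fold lower relative to the reference (exact permutation p = 0.0286, adjusted 0.0786). Its ratios were 10.6 to 11.6 in wild-type and 1.59 to 2.99 in Sav1-null libraries. Prss8 alone was lower and the reference alone was higher, each without overlap. This fixed the separation of their ratio in advance, so that p does not stand as a test. Sgk1 and Nedd4l had log2 differences of -0.91 and -0.53, and their groups overlapped (exact permutation p = 0.0571 and 0.114). The choice of reference moved these values: with all 8 principal cell markers Scnn1b was at -0.37 and Scnn1g at -0.36, the opposite direction.

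**Figure D4:**
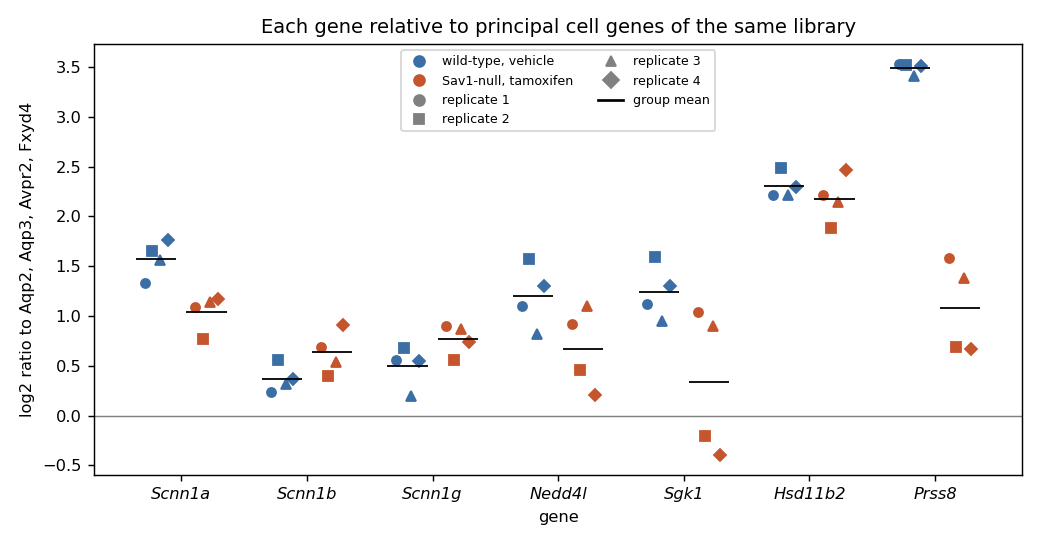
Log2 ratio of each of the 7 genes to the mean log2 of Aqp2, Aqp3, Avpr2 and Fxyd4 in the same library, with wild-type libraries in blue, Sav1-null libraries in orange, a symbol for each replicate and black bars at the means. Prss8 shows the widest gap, a log2 difference of -2.41, which adds the rise of the reference to its own fall. The groups of Scnn1b, Scnn1g and Hsd11b2 overlap.

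Other segments moved in several directions beside these genes. Of 10 intercalated cell markers, acid-base cells that lie between the principal cells, 7 rose and 1 fell (median log2 fold change 0.55). Of 10 distal convoluted and connecting tubule markers 3 rose and 3 fell (median -0.35): Trpv5, the apical calcium channel, rose from 445 ± 42.7 to 3313 ± 1035 and Pvalb, a marker of the early distal convoluted tubule, fell from 654 ± 58.6 to 1.32 ± 1.25 (SD, n = 4; limma adjusted p = 2.49e-06 and 5.42e-07). Of 10 thick ascending limb markers 5 rose and 2 fell. Of 6 tested medulla and hypertonicity markers 3 rose and 1 fell, and Slc14a2, the urea transporter of the inner medulla, had at most 0.838 in a wild-type library and from 51.4 to 233 in the Sav1-null libraries. The part of these segments in the rise of the channel genes was not tested. Macrophage markers rose in 8 of 8 tested genes, fibroblast markers in 6 of 7 and lymphocyte markers in 5 of 5, while 0 of 7 endothelial markers rose and 1 fell, and 1 of 6 podocyte markers rose and 3 fell.

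The genes that bring ENaC to the membrane and remove it did not share a direction. Of 13 trafficking and ubiquitin genes 4 rose, 4 fell and 5 were not called, with a median log2 fold change of -0.17. Over all tested genes 43.9% were called higher and 25.2% lower, so a mix of directions is not particular to this list. Nedd4, the closest relative of Nedd4l, rose from 7346 ± 382 to 12551 ± 618 (SD, n = 4; log2 fold change 0.77, limma adjusted p = 2.97e-05). Cnksr3, an aldosterone-induced scaffold that assembles Sgk1 with the ligase and the channel, rose from 329 ± 43.2 to 708 ± 73.2 (SD, n = 4; 1.11, limma adjusted p = 3.36e-05). Sgk2, a kinase related to Sgk1, fell from 3155 ± 430 to 1155 ± 357 (SD, n = 4; limma adjusted p = 0.000276). After median-of-ratios rescaling 2 of the 13 genes were higher and 7 lower, and Ywhae, a 14-3-3 protein that binds phosphorylated Nedd4l, lost its call (0.34 as deposited, 0.11 rescaled).

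The list of kinases upstream of Sgk1, which also holds subunits of their complexes and the related Akt kinases, was divided as well. Of its 11 genes 4 were higher and 4 lower, with a median of 0.04 on the log2 scale. None of the 4 higher genes encodes a kinase that acts on Sgk1 directly. Pdpk1, the kinase PDK1, was at -0.22 and not called (limma adjusted p = 0.201). Mtor, the catalytic subunit of the complex that phosphorylates Sgk1, fell from 6958 ± 127 to 1971 ± 425 (SD, n = 4; log2 fold change -1.84, limma adjusted p = 4.91e-06). Its partners Mlst8 and Rictor each rose by 0.63 on the log2 scale (limma adjusted p = 0.000833 and 0.00404). Mapkap1, another subunit of that complex, was at -0.46 and lost its call with equal library totals (-0.07, limma adjusted p = 0.344). The insulin-responsive branch was split: Pik3r1 and Akt1 rose by 1.03 and 0.91 on the log2 scale, Pik3ca and Pik3cb fell by 0.50 and 0.40, and Insr and Akt2 were at 0.04 and not called. With equal library totals, 1 of the 11 genes was called lower in place of 4.

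Among the proteases that can cleave ENaC and their inhibitors, 9 of 12 tested genes rose and 3 fell, with a median log2 fold change of 1.05. The count pools proteases with inhibitors, and the 3 that fell were proteases. Other proteases rose: Tmprss2, Tmprss4, Plau and Plat by 0.46, 1.90, 0.99 and 1.45 on the log2 scale, and St14. St14, the membrane protease matriptase that acts together with prostasin, had 654, 730, 922 and 922 in wild-type and 2967, 3981, 3249 and 7866 in Sav1-null libraries. It rose by 2.38 on the log2 scale (limma adjusted p = 6.11e-05), opposite to Prss8, and was highest in Sav1-null replicate 4, as the channel subunits were. The serine protease inhibitors Serpinb6a and Serpine2 rose by 2.67 and 2.28, and the prostasin inhibitors Spint1 and Spint2 rose by 0.81 and 1.11. Hpn, the protease hepsin, fell by 1.46 and Furin, which cleaves the alpha and gamma subunits in the Golgi, fell by 0.68 on the log2 scale (limma adjusted p = 4.70e-06 and 0.000397). Klk1, tissue kallikrein, was the third that fell (-0.75), and it had the opposite sign after quantile normalization (0.20, not called).

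Of 12 corticosteroid receptors and steroid handling genes, 2 rose and 4 fell (median -0.09). The glucocorticoid receptor Nr3c1 was at -0.46 with overlapping groups (limma adjusted p = 0.0397), and its call was lost in 8 alternatives, the removal of wild-type replicate 1, 2 or 3 or Sav1-null replicate 2 among them. Fkbp4, a chaperone of these receptors, was at -0.28 with overlapping groups. Its call was lost in 11 alternatives, among them the removal of any library but Sav1-null replicate 4, and it reversed to 0.10 with equal totals and with quantile normalization. Of 12 genes known to be induced by corticosteroids, 6 rose and 1 fell (median 0.35, against 0.23 over all tested genes). Zbtb16 rose from 41.5 ± 17.9 to 640 ± 339, and Edn1, encoding endothelin, rose from 29.9 ± 8.71 to 1181 ± 177 (SD, n = 4; limma adjusted p = 3.59e-05 and 2.54e-07). Tsc22d3 (GILZ) and Per1 rose by 0.59 and 0.97 on the log2 scale, Ndrg2 fell by 0.97, and Fkbp5, a standard readout of glucocorticoid action, was at -0.02 and not called. Without Sav1-null replicate 3, 3 genes of this list were lower in place of 1.

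In the WNK-SPAK pathway and distal sodium and potassium transport, 4 of 14 tested genes rose and 3 fell (median -0.01). Stk39, the kinase SPAK, rose from 693 ± 47.2 to 1323 ± 156 (SD, n = 4; log2 fold change 0.93, limma adjusted p = 2.93e-05). Klhl3 and Cul3, parts of the ubiquitin ligase that degrades WNK kinases, fell by 1.34 and 0.63. The sodium chloride cotransporter Slc12a3, upstream of ENaC in the nephron, was at -0.31 and not called (limma adjusted p = 0.0570), and neither were Wnk1, Wnk4 and Atp1b1, a subunit of the sodium pump. Kcnj1, the apical potassium channel ROMK, rose by 0.37. Scaling changed these counts, to 8 higher after quantile normalization, and to 6 lower after median-of-ratios rescaling. Without Sav1-null replicate 3, 5 were lower.

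**Figure D5:**
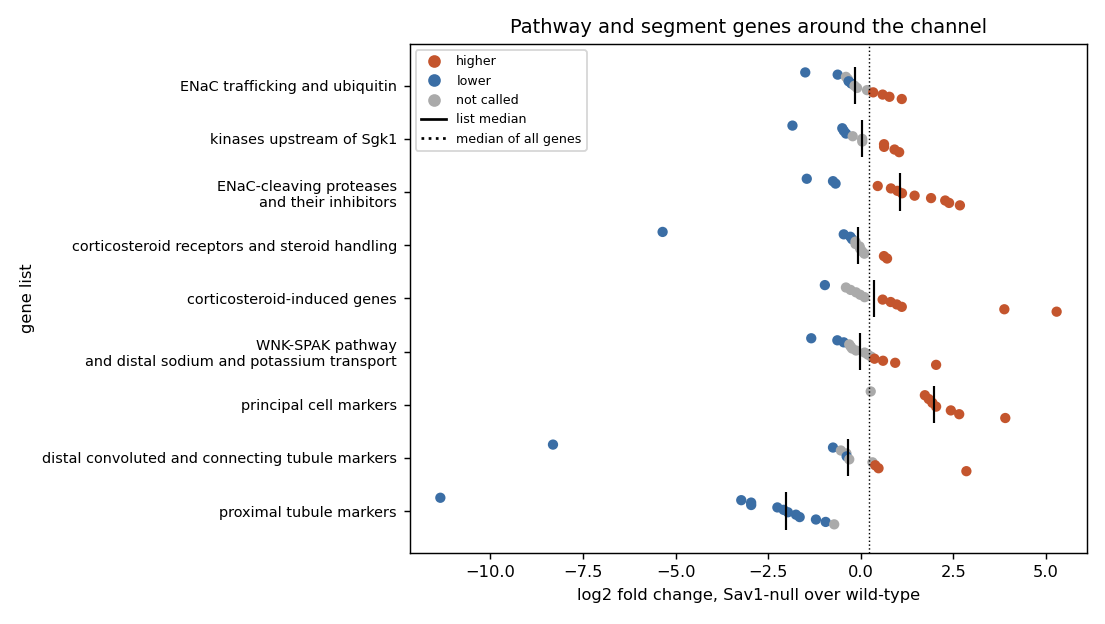
Log2 fold change (Sav1-null over wild-type) of every tested gene in 9 lists of pathway and segment genes, in orange where called higher, in blue where called lower and in grey where not called, with list medians as black bars and the median of all tested genes, 0.23, dotted. Proteases and inhibitors lie mostly to the right (median 1.05), principal cell markers further right (1.98) and proximal tubule markers to the left (-2.03).

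The genes most like the channel subunits over the 8 libraries were ranked by Pearson's r to the mean of the 3 standardised subunits, across 13670 other genes. Hoxd9 led (r = 0.999), followed by Hk1, Gramd1a, St14 and Hddc2 (r = 0.997). An r above 0.9 was reached by 3169 genes, or 23.2%, since so many genes differed between the groups. After group means were subtracted, 568 genes, or 4.16%, had an r above 0.9, and the leading genes were Llph (r = 0.993), Kcnq1, Spnb3, Anxa6 and Ltb (r = 0.988). These r values describe 8 libraries that share their scaling, and Llph itself was not called between the groups (log2 fold change 0.13). Kcnq1, a voltage-gated potassium channel, was at 1.42 and Anxa6, an annexin, at 2.27.

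The fewest reads behind any value of the 7 genes was about 1064, for Scnn1b in wild-type replicate 1, a counting error of 3.07%. Several genes overlap others in the RefSeq annotation: Prss8 shares 122 bases with Kat8, Sgk1 shares 800 bases with the pseudogene Gm18511, and Nedd4l, Sgk1 and Scnn1g each overlap a long noncoding gene. Of these partners only Kat8 has a row in the deposited table, under its older symbol Myst1, with values from 196 to 303. Whether counting used strand is not given in the sources used here, so the values of these 4 members are uncertain to that extent.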

How the data were processed

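Poly(A) RNA of mouse kidney cortex had been sequenced in 8 libraries, and groups came from the sample titles. The authors deposited a normalized signal, not a count, for each gene and library. The submitters' processing notes name RSEM, SAMtools and Picard 1.64 and the build mm9. Aligner, annotation and strand setting: not given in the sources used here. The upper quartile (percentile 75) and the step between low values, taken as 1 read, were read from the values. 1 gene name was repeated.

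Values were transformed to log2(value + 1), a scale that understates changes of low genes. A gene entered the test if its mean over the 8 libraries reached 10. The test was limma 3.58.1 in R 4.3.3 (moderated variances, intensity trend, 6 residual degrees of freedom, two-sided), with calls at a Benjamini-Hochberg adjusted p under 0.05 over all tested genes. The fit was also run on simulated data with independent noise, in which few genes changed. Many genes changed here, so that run does not test the fit under the conditions of these data. The 11 log2 ratios within a library were compared by exact permutation (70 assignments, two-sided). Alternatives were pseudocounts of 0.5 and 10, no filter, a minimum mean of 50, 3 other scalings, no intensity trend, the replicate number as a block, each library left out, wild-type replicates 2 and 3 left out together, and all 8 principal cell markers as reference. The length choice, longest or median transcript of GENCODE M21 (GRCm38), was added after seeing the data. Lengths and promoters came from another build than mm9.

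The 7 members and 19 gene lists were chosen with earlier results of these data known. Named were all members, Sav1, the 4 reference genes, from each list up to 3 called genes with the smallest p in its leading direction and up to 2 in the other, and 5 genes most like the subunits by either measure. Not every gene so selected is named, and some results are not reported here. Genes named beyond the rule, chosen after their values were seen, were Havcr1, Kdm5d, Myst1, Pik3ca, Pik3cb, Rictor, Spint1, Spint2, Tsc22d3, Per1 and Kcnj1. Tmprss2, Tmprss4, Plau and Plat were also named beyond it, to show proteases that rose. So were the listed genes given as not called, apart from Aqp3 and Llph.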

Additional observations from a re-analysis of the deposited data

How the results depend on the processing

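All 7 members kept their direction under every alternative run, and 6 of them kept their call. Sgk1 lost it after median-of-ratios rescaling (0.33) and without wild-type replicates 2 and 3 (0.60). With equal library totals 1946 genes were called lower. The replicate block gave 5927 genes higher and 3391 lower and changed no member's call. The correlation of same-numbered libraries' deviations was 0.14, 0.08, -0.17 and 0.13, and not every library correlated best with its own number. With 4 libraries per group these values cannot settle whether the numbers pair libraries, which the labels do not say. Values turned sign for Klk1 (0.20) and Sall3 (-0.26) under quantile normalization, and for Fkbp4 (0.10) under that and under equal totals. 

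Counts in the lists moved with the scaling. After median-of-ratios rescaling, trafficking genes were 2 higher and 7 lower, steroid handling genes 1 higher, corticosteroid-induced genes 3 lower, WNK-SPAK genes 6 lower, intercalated markers 2 lower, distal convoluted and connecting tubule markers 1 higher and 6 lower, and endothelial markers 2 lower. With equal totals, trafficking genes were 1 lower, upstream kinases 1 lower, steroid handling genes 5 higher and 1 lower, WNK-SPAK genes 7 higher, medulla markers 5 higher and endothelial markers 1 higher. After quantile normalization, steroid handling genes were 4 higher and 1 lower, WNK-SPAK genes 8 higher, thick ascending limb markers 1 lower, endothelial markers 4 lower and lymphocyte markers 3 higher. Steroid handling genes were 2 lower without the intensity trend and 2 lower with the replicate block, where endothelial markers were 2 lower. Lymphocyte markers were 0 higher with a minimum mean of 50, since none was then tested, and 1 lower without a filter. Without wild-type replicates 2 and 3, steroid handling genes, thick ascending limb markers and podocyte markers were 1 lower each. Over single libraries left out, the count lower ran from 1 to 3 for steroid handling genes, 1 to 3 for corticosteroid-induced genes, 2 to 5 for WNK-SPAK genes, and 1 to 2 for intercalated, thick ascending limb and endothelial markers.

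With all 8 principal cell markers as reference, the log2 difference was -0.37 for Scnn1b, -0.36 for Scnn1g, -1.16 for Nedd4l, -1.54 for Sgk1 and -0.76 for Hsd11b2. Without wild-type replicates 2 and 3 the smallest exact permutation p possible was 0.0667, so no ratio could pass: Scnn1b to Scnn1a was 0.84, Scnn1g to Scnn1a 0.72, Scnn1g to Scnn1b -0.12, Scnn1a to the reference -0.50 and Prss8 to the reference -2.44. Over single libraries left out, the log2 difference ran from -0.078 to 0.11 for Scnn1g to Scnn1b, from -0.53 to -0.27 for Sgk1 to Nedd4l, and to the reference from -0.61 to -0.44 for Scnn1a and from -1.14 to -0.66 for Sgk1. The cause of these changes was not tested. Counting error reached at most 3.07% in a value of the 7 members.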
